A study of Mus with 8 samples.

Results

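The fibroblast growth factor (FGF) genes described here are 6 ligands (Fgf1, Fgf2, Fgf7, Fgf10, Fgf18 and Fgf21) and the 4 tyrosine kinase receptors (Fgfr1, Fgfr2, Fgfr3 and Fgfr4), 10 of the 22911 RefSeq-named genes on the array. They were chosen by name, and each gene was read through the probes whose accession is a RefSeq transcript of it, 20 probes in all. The samples were whole subcutaneous tumours of MC38, a colon cancer line of the mouse, removed 25 to 30 days after transplantation. In the WT host group (4 tumours) the recipients were wild-type B6 mice. In the Ext1S100a4Cre host group (4 tumours) they were B6 mice with Ext1 flox/flox and S100a4-Cre. S100a4-Cre acts in host cells that use the S100a4 promoter, among them fibroblasts and some immune cells, so Ext1 of the transplanted cells was not targeted in either group. Total RNA of the whole tumour was measured, and in such bulk RNA fewer cells of a type and less RNA per cell cannot be told apart. The hosts' ages are not given in the sources used here.

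FGFs bind receptor tyrosine kinases on the cell surface, and most of them need heparan sulfate chains as a coreceptor to form a stable signalling complex. Ext1 encodes a polymerase that lengthens those chains. Fgf21 is an endocrine member that depends on the coreceptor beta-Klotho (Klb) instead and binds heparan sulfate weakly. Receptor activation runs through the adaptor Frs2 to the ERK pathway, which induces its own feedback inhibitors of the Sprouty and Dusp families and the Etv transcription factors. In tumours, fibroblasts are a known source of Fgf2, Fgf7 and Fgf10, while epithelial cells carry receptors for them.

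No member differed between the hosts beyond the spread between tumours. Of the 10 genes 9 were bright enough to test, and 6 of these had a lower and 3 a higher mean in the Ext1S100a4Cre host. The largest differences were those of the ligands Fgf7 (-1.38) and Fgf2 (-1.14) on the log2 scale, while the receptors differed by -0.45 to 0.31. This order depends on how dim readings are processed. With normexp, a model-based background correction that keeps dim spots above 0, Fgf7 differed by -0.45, Fgf18 by -0.46 and Fgf2 by -0.028. Normexp was run with an offset of 50, which by itself draws differences of dim spots toward 0. Limma, a linear model fitted to all genes with a shared estimate of spread, called 0 of the 9 members at an adjusted p of 0.05, and of all 31281 genes and transcripts tested it called 0 (0%). At an unadjusted p under 0.05 it called 0 of the 9, where 2050 of all genes (6.55%) were called, with 2.16% of all lower and 4.39% higher in the Ext1S100a4Cre host. Of the 16 member probes kept, each tested on its own, 0 were past that mark (6.29% of all kept probes). The 2 groups overlapped for all 9, where 4.52% of all genes had groups that did not overlap. The median difference of the 9 members was -0.45 and that of all genes tested 0.050, and 41.9% of all genes had a lower mean in the Ext1S100a4Cre host. With normexp 4 of the 9 were lower and 0 had an unadjusted p under 0.05 (8.67% of all genes), with quantile or median scaling 5 were lower, and with the series matrix, the deposited intensities with no scaling between arrays, 7. Of all genes at an unadjusted p under 0.05, 67% were higher in the Ext1S100a4Cre host, 85.2% with normexp, 56.9% with median scaling and 6.38% in the series matrix.

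The arrays differed in brightness before scaling. The 75th percentile of spot intensity ran from 846.9 to 1265, lowest on the arrays of Ext1S100a4Cre host tumours 1 and 4 (854.8 and 846.9). These 2 arrays had 65.65% and 65.96% of probes well above background, and the other 6 had 68.83% to 71.09%. They also differed in sex-linked signal: Eif2s3y, a Y-linked gene, measured -8.53 and -8.15 there and -2.25 to -0.40 in the other 6 tumours. Ddx3y, Kdm5d and Uty, also Y-linked, shared this pattern. Each of these genes was well above background in 4 WT host and 2 Ext1S100a4Cre host tumours, so the hosts were not balanced in it. The 8 epithelial markers, among them Epcam, Cdh1 and Krt8, were well above background in all 8 tumours. Levels below are log2 intensities relative to the 75th percentile of the same array, and differences are the Ext1S100a4Cre host minus the WT host. Since probes bind with different strength, a level of 1 gene is not set against that of another.

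Fgf7, the keratinocyte growth factor made by fibroblasts, was lower on average in the Ext1S100a4Cre host and varied widely within both groups. In the WT host the 4 tumours measured -4.46, -3.78, -1.59 and -3.95, and in the Ext1S100a4Cre host -6.52, -2.84, -4.05 and -5.89. WT host tumour 3 was the highest of all 8, and Ext1S100a4Cre host tumours 1 and 4 lay below every WT host tumour, while tumour 2 lay above 3 of the 4. The means were -3.44 ± 1.27 and -4.82 ± 1.69 (SD, n = 4 each). The difference of -1.38 (SE 0.91) had a limma unadjusted p of 0.169 (adjusted 0.747), and its 95% interval ran from -3.48 to 0.72. On the linear scale that interval spans 0.0895 to 1.65 times the WT level. In Ext1S100a4Cre host tumour 1 the probe was not well above background.

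Fgf10, the closest relative of Fgf7 and a ligand of the same epithelial receptor form, was not measurable. Neither of its 2 probes was well above background on any of the 8 arrays. Background-subtracted intensities of the brighter one were 2.12 to 8.51, and no difference is given for it.

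Fgf2, basic FGF, which leaves cells without a signal peptide and is stored on heparan sulfate in the matrix, was also lower on average. It measured -5.63, -5.25, -4.47 and -6.21 in the WT host and -8.52, -6.14, -4.95 and -6.51 in the Ext1S100a4Cre host. Every WT host reading but only 2 of the 4 Ext1S100a4Cre host readings were well above background, so the difference rests partly on background. Tumours 1 and 4 of the Ext1S100a4Cre host lay below every WT host tumour, tumour 1 by far, and tumours 2 and 3 lay among them. The difference of -1.14 (SE 0.72) had a limma adjusted p of 0.747 and a 95% interval from -2.79 to 0.52. Intensities were only 2.32 to 46.5, and with normexp, which adds an offset to such dim spots, the difference was -0.028. A second Fgf2 probe passed that mark in only 1 tumour per host and was not tested.

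**Figure D1:**
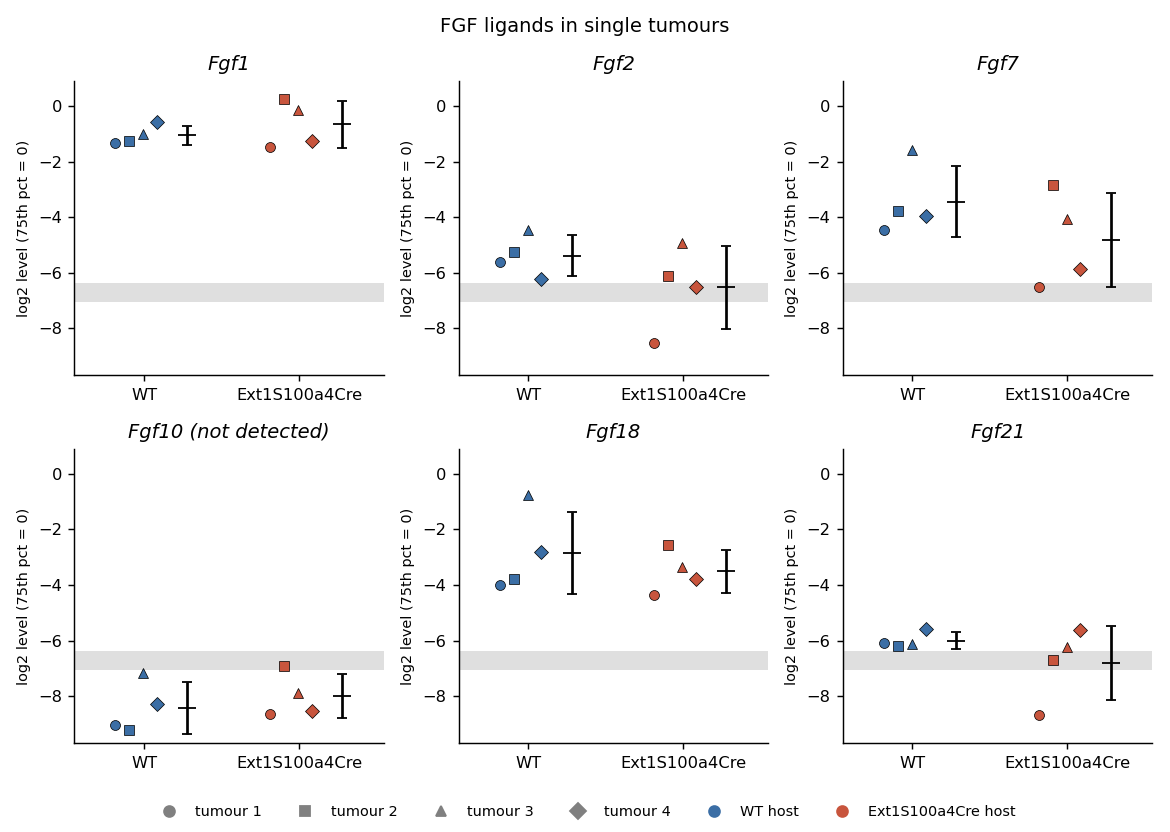
Levels of the 6 FGF ligands in each tumour (y axis, log2 intensity with the array's 75th percentile at 0; each symbol is 1 tumour, blue for the WT host and red for the Ext1S100a4Cre host; bars are mean and SD, n = 4). The grey band spans, over the 8 arrays, the lowest signal that was well above background (-7.05 to -6.36). The lowest readings of Fgf2 and Fgf21 and 7 of the 8 Fgf10 readings lie below it, and the groups overlap in every panel.

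Fgf18, a ligand active in bone and lung growth and a target of Wnt signalling, was highest in 1 WT host tumour. Its levels were -4.00, -3.77, -0.76 and -2.80 in the WT host and -4.37, -2.56, -3.34 and -3.77 in the Ext1S100a4Cre host. WT host tumour 3 stood apart from the other 7, which lay between -4.37 and -2.56 with the hosts intermixed. The difference of -0.68 (SE 0.72) had a limma adjusted p of 0.806 and a 95% interval from -2.34 to 0.98. Without WT host tumour 3 the difference was 0.011. Within slide row 1 it was 0.42 and within slide row 2, which holds that tumour, -1.77 (2 tumours of each host a row).

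Fgf21, the endocrine ligand that liver and other stressed tissues secrete, was near the limit of detection. The WT host tumours measured -6.07, -6.21, -6.14 and -5.57, and the Ext1S100a4Cre host tumours -8.68, -6.70, -6.22 and -5.63. The probe was well above background in 4 and 2 tumours, with intensities of 2.09 to 23.6 over the 8 arrays. Tumour 1 of the Ext1S100a4Cre host was far below the rest. Tumours 2 and 3 also lay below every WT host tumour, tumour 3 only just, and tumour 4 lay among them. The difference was -0.81 (SE 0.59, limma adjusted p = 0.754), it was -0.18 without that tumour 1, and with normexp its sign turned (0.074). Klb and Kl, the coreceptors of endocrine FGFs, were not well above background in any tumour.

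Fgf1, acidic FGF, which can bind all 4 receptors, was the ligand with a higher mean in the Ext1S100a4Cre host. In the WT host it measured -1.34, -1.27, -1.01 and -0.58, and in the Ext1S100a4Cre host -1.48, 0.27, -0.16 and -1.25. Tumours 2 and 3 of the Ext1S100a4Cre host lay above every WT host tumour, tumour 4 lay inside the WT host range and tumour 1 below it. The means were -1.05 ± 0.34 and -0.65 ± 0.84 (SD, n = 4 each). They differed by 0.39 (SE 0.40, limma adjusted p = 0.800) and a 95% interval from -0.53 to 1.32. Its 2 dimmer probes differed by 0.21 and 0.17, in the same direction. Without Ext1S100a4Cre host tumours 1 and 4 the difference was 1.10 (limma unadjusted p = 0.00593, adjusted p = 0.667). In that fit 5.82% of all genes were under an unadjusted p of 0.05. The tumours it keeps are the 2 in which Fgf1 lay above every WT host tumour, so this p is no support for a difference. Without tumours 2 and 3 the difference was -0.31.

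The receptors varied less between tumours than most ligands did. Fgfr1, the receptor form of mesenchymal cells and of many tumour lines, measured 3.41, 3.28, 3.00 and 2.45 in the WT host and 3.52, 3.31, 2.62 and 3.91 in the Ext1S100a4Cre host. Tumours 1 and 4 of the Ext1S100a4Cre host were above every WT host tumour, and tumour 3 lay near the lowest of them. The difference of 0.31 (SE 0.31) had a limma adjusted p of 0.799 and a 95% interval from -0.41 to 1.03. Of the 4 Fgfr1 probes, all well above background in all 8 tumours, 3 gave differences of 0.31, 0.18 and 0.21 and the dimmest gave -0.060. With the array's scaling left out, in the series matrix, the difference was 0.057.

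Fgfr2, whose epithelial splice form receives Fgf7 and Fgf10, was the member with the smallest difference. Its levels were -3.28, -3.37, -2.86 and -2.85 in the WT host and -3.24, -2.78, -3.08 and -3.29 in the Ext1S100a4Cre host. The groups covered nearly the same range, and the difference of -0.010 (SE 0.18, limma adjusted p = 0.991) had a 95% interval from -0.43 to 0.41, or 0.743 to 1.33 times the WT level. The accessions do not say which splice form this probe reads. A second probe was well above background in 1 and 2 of 4 tumours and ranged from -8.31 to -4.13 in the Ext1S100a4Cre host.

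Fgfr3, a receptor of epithelial and skeletal cells, was the most even member. The WT host tumours measured -2.42, -2.29, -2.38 and -2.38, and the Ext1S100a4Cre host tumours -2.23, -2.10, -2.38 and -2.05. Of the latter, 3 of 4 were above every WT host tumour and tumour 3 lay among them. The SD was 0.054 in the WT host and 0.15 in the Ext1S100a4Cre host (n = 4 each). The difference of 0.18 (SE 0.12) had a limma adjusted p of 0.747. The exact two-sided permutation test gave p = 0.0571, where 0.0286 is the smallest that 4 against 4 tumours allow. This was the smallest permutation p of the 9 tested members, and the others ran from 0.229 to 0.971. With the unscaled series matrix, which moved the median of all genes by -0.25, the difference was -0.067. A dimmer Fgfr3 probe gave 0.13 (SE 0.21).

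Fgfr4, a receptor of liver, regenerating muscle and some carcinomas, had a lower mean in the Ext1S100a4Cre host on its bright probe and not on its dim probe. The bright probe measured -2.98, -3.29, -2.65 and -3.56 in the WT host and -4.00, -3.47, -2.64 and -4.16 in the Ext1S100a4Cre host. Tumours 1 and 4 of the Ext1S100a4Cre host were below every WT host tumour, while tumour 3 matched the highest of them. The difference of -0.45 (SE 0.35, limma adjusted p = 0.764) had a 95% interval from -1.27 to 0.37. The dim probe, well above background in 7 of the 8 tumours, differed by 0.070 (SE 0.28). Without Ext1S100a4Cre host tumours 1 and 4 the difference on the bright probe was 0.064.

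**Figure D2:**
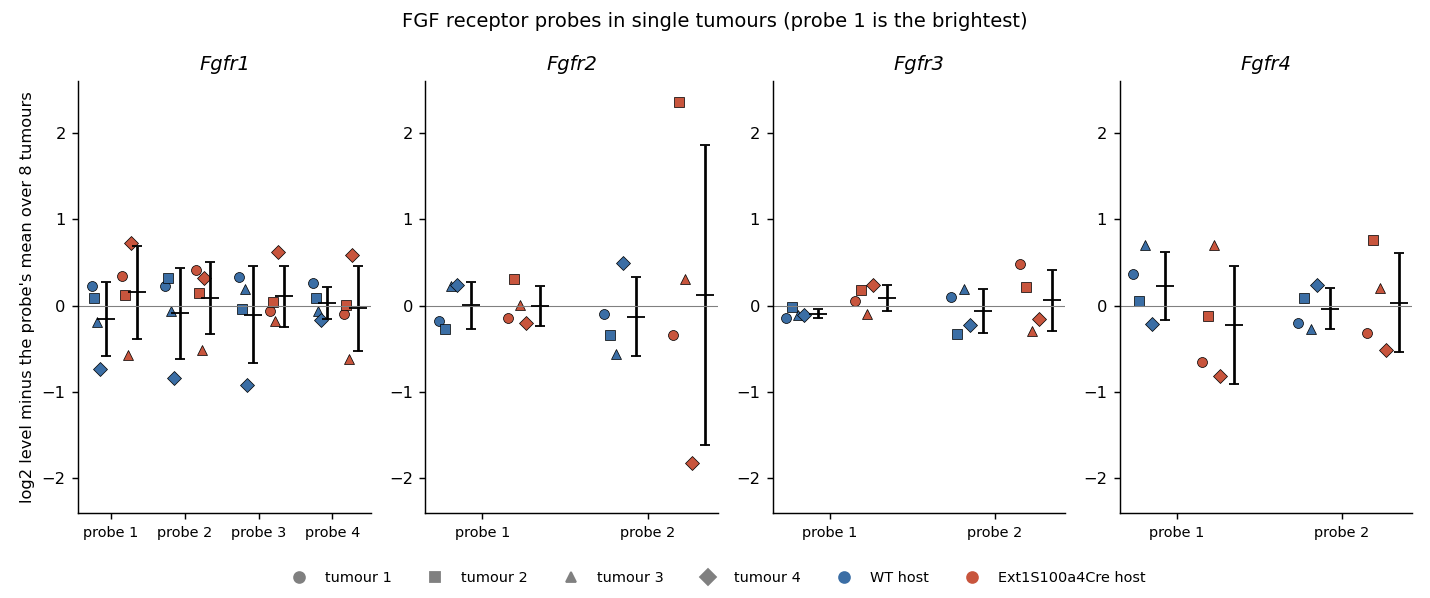
All probes of the 4 FGF receptors in each tumour (y axis, log2 level minus the mean of that probe over the 8 tumours; blue, WT host; red, Ext1S100a4Cre host; bars are mean and SD, n = 4). The 4 Fgfr1 probes place WT host tumour 4 or Ext1S100a4Cre host tumour 3 lowest, and the second Fgfr2 probe, which is near background, scatters most.

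The members with the larger differences depended on which Ext1S100a4Cre host tumours were counted. Without tumours 2 and 3, an alternative chosen after seeing the data, Fgf7 differed by -2.76, Fgf2 by -2.12 and Fgfr4 by -0.96, each with an unadjusted p under 0.05 (0.0145, 0.0221 and 0.0128) and a limma adjusted p of 0.281. So 3 of 9 members were past that mark, where 17.1% of all genes were. With tumour 2 alone left out 1 member had an unadjusted p under 0.05 (Fgf7, -2.04, limma adjusted p = 0.661; 6.91% of all genes). With tumour 3 alone left out 2 members did (Fgf2, -1.66, and Fgfr4, -0.76, limma adjusted p = 0.523 for both; 9.48% of all genes). Leaving out other single tumours made the differences smaller in some fits and larger in others. Fgf7 differed by -0.76 without WT host tumour 3 and by -0.82 without Ext1S100a4Cre host tumour 1. Fgf2 differed by -0.47 without the latter, and Fgfr4 by -0.25 without Ext1S100a4Cre host tumour 4. With WT host tumour 4 left out they were larger, at -1.55 for Fgf7, -1.41 for Fgf2 and -0.60 for Fgfr4. Without Ext1S100a4Cre host tumours 1 and 4 together Fgf7, Fgf2 and Fgfr4 differed by -0.0035, -0.15 and 0.064. Tumours 1 and 4 are those with dimmer arrays and with the Y-linked genes not well above background. The part of either in these differences was not tested.

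**Figure D3:**
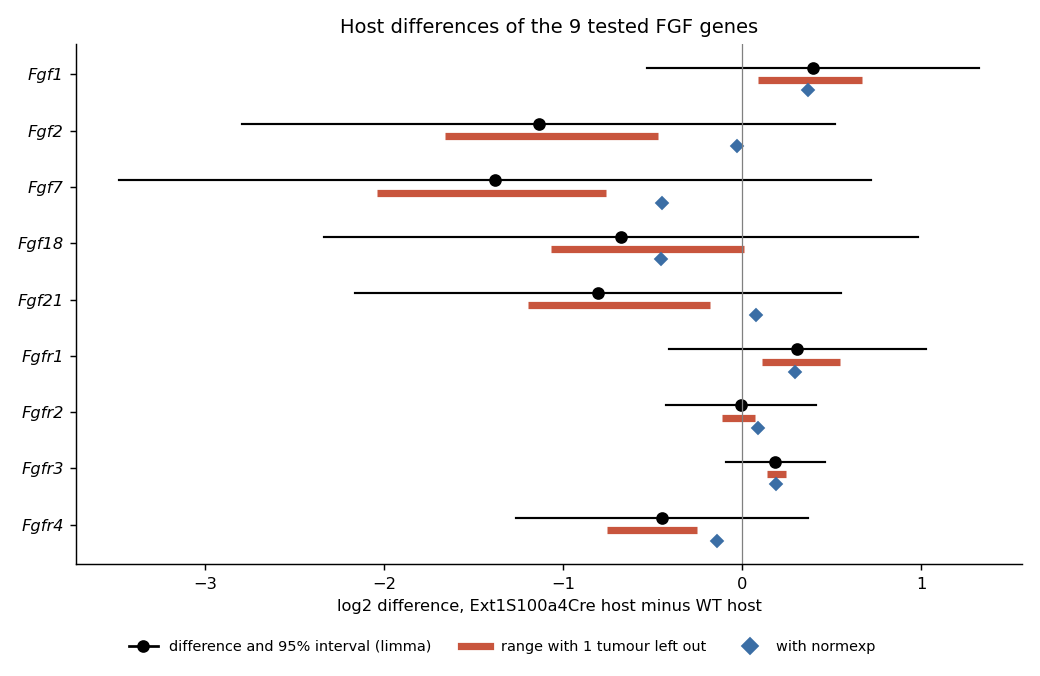
Host differences of the 9 tested FGF genes (x axis, log2 difference, Ext1S100a4Cre host minus WT host; black, limma estimate with its 95% interval; red, the range over the 8 fits with 1 tumour left out; blue, the estimate with normexp background correction). Every interval includes 0, and normexp draws Fgf2 from -1.14 to -0.028 and Fgf7 from -1.38 to -0.45.

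Markers of host cell types moved with some of the ligands. The mean of 10 fibroblast markers was 2.64, 3.22, 4.35 and 2.41 in the WT host and -0.57, 3.48, 2.69 and 1.82 in the Ext1S100a4Cre host. WT host tumour 3 had the highest and Ext1S100a4Cre host tumour 1 the lowest mean, and these 2 tumours were also the extremes of Fgf7, Fgf2 and Fgf18. All 10 markers, Col1a1, Dcn and Pdgfra among them, were well above background in all 8 tumours and had a lower mean in the Ext1S100a4Cre host, though Pdgfra differed by only -0.016. Their summed level ran from 6.85 to 8.98 in the WT host and from 3.97 to 7.61 in the Ext1S100a4Cre host. Macrophage markers had the same extremes, with a summed level of 4.66 to 7.20 and 2.46 to 5.54 and 8 of 8 lower means. Endothelial, T and NK cell, and pericyte and smooth muscle markers also had their highest mean in WT host tumour 3 and their lowest in Ext1S100a4Cre host tumour 1. Their summed levels ran from 2.23 to 2.82, 1.14 to 2.26 and 3.24 to 3.80 in the WT host and from 0.89 to 2.57, 0.91 to 1.72 and 1.97 to 3.76 in the Ext1S100a4Cre host, with 7 of 7, 6 of 6 and 5 of 6 lower means. The part of these cells in the differences of Fgf7, Fgf2 and Fgf18 was not tested.

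Fgf1 was highest in the 2 tumours with the highest skeletal muscle markers. The mean of 7 skeletal muscle markers reached 0.0 and 0.78 in Ext1S100a4Cre host tumours 2 and 3 and stood between -4.58 and -3.15 in the other 6 tumours. The mean of 6 adipocyte markers was -2.60 and -0.92 in tumours 2 and 3, -2.26 in WT host tumour 3, where Fgf1 was -1.01 and not high, and -5.10 to -4.62 in the rest. All 7 muscle markers had a higher mean in the Ext1S100a4Cre host, with a summed level of -0.20 to 4.40 against -1.16 to 0.45. Of these, Mb was well above background in 1 WT host and 4 Ext1S100a4Cre host tumours. It passed the background filter only through the Ext1S100a4Cre host, the group where it is high, so its higher mean is no support for a difference. Myh4, which was not tested, passed the background mark in 0 WT host and 2 Ext1S100a4Cre host tumours. For the adipocyte list the summed level was -1.57 to 2.94 against -1.59 to 1.53, with all 6 tested markers higher on average. The part of these tissues in the Fgf1 difference was not tested. Epithelial markers had a summed level of 6.25 to 7.21 against 6.38 to 7.03 and 4 of 8 higher means.

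**Figure D4:**
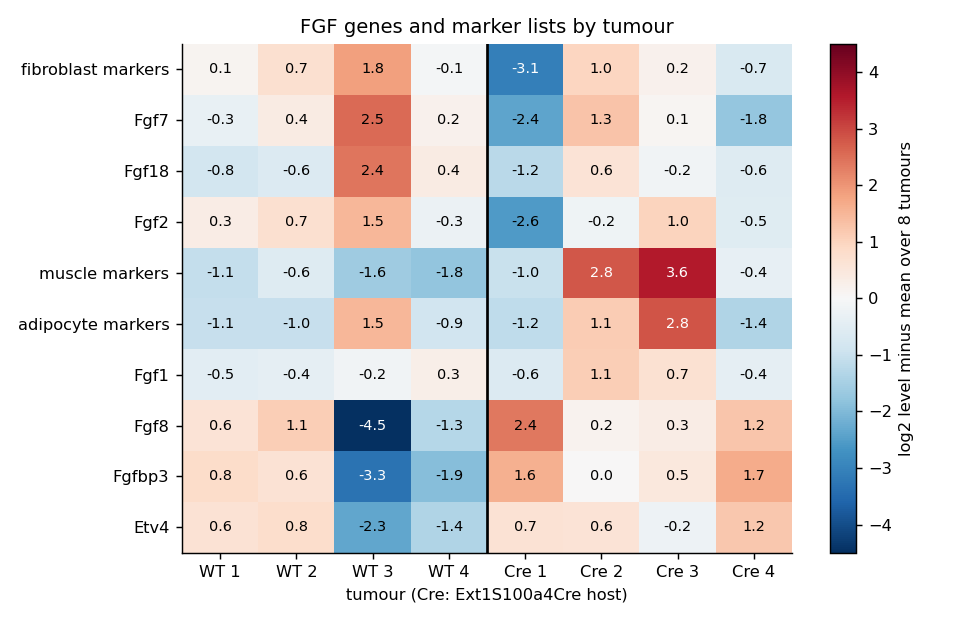
Selected FGF genes beside the marker means of fibroblasts, skeletal muscle and adipocytes in each tumour (columns; colour and number, log2 level minus the row's mean over the 8 tumours). Fgf7, Fgf18 and Fgf2 peak in WT host tumour 3 and reach their minimum in Ext1S100a4Cre host tumour 1, as the fibroblast markers do; Fgf1 is highest in Ext1S100a4Cre host tumours 2 and 3, and Fgf8, Fgfbp3 and Etv4 are lowest in WT host tumour 3.

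Of the other 16 FGF ligands, 9 were tested, 5 with a lower and 4 with a higher mean in the Ext1S100a4Cre host (median difference -0.23), and 0 passed the adjusted threshold. Fgf20, a ligand related to Fgf9, was well above background in every WT host tumour and in no Ext1S100a4Cre host tumour (4 and 0). Its levels were -6.42, -5.67, -6.26 and -4.60 against -7.26, -6.77, -8.52 and -8.47 (limma adjusted p = 0.733). Ext1S100a4Cre host readings below the dimmest well-above-background signal of their array were raised to it, and the mean was then 1.76-fold lower. That signal is taken over all probes and is not the limit of this probe. Fgf20 passed the background filter only through the WT host, the group where it is high. So its p, this fold and its groups not overlapping are no support for a difference. With normexp the difference was -0.091. Fgf8, an embryonic ligand that some carcinomas re-express, had the widest spread. It measured 2.91, 3.40, -2.24 and 1.03 in the WT host and 4.65, 2.45, 2.62 and 3.54 in the Ext1S100a4Cre host, lowest in the tumour where Fgf18 and Fgf7 were highest. Its difference of 2.04 (SE 1.19, limma adjusted p = 0.747) was 0.87 without WT host tumour 3. Fgf11 and Fgf12, intracellular FGF-like proteins that do not act through these receptors, differed by -0.43 and 0.23, the latter turning to -0.015 in the unscaled series matrix.

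Among 10 genes of coreceptors and FGF-binding proteins 8 were tested, 5 lower and 3 higher. An unadjusted p under 0.05 was found for 1 gene, where 6.55% of all genes had it. That gene was Cdh2, N-cadherin, which can associate with FGF receptors at the membrane. It measured -0.48, -0.15, -0.55 and -1.11 in the WT host and 0.63, 0.92, 0.32 and 0.96 in the Ext1S100a4Cre host, without overlap, and missed the threshold over all genes (difference 1.28, SE 0.24, limma adjusted p = 0.573). Groups without overlap and higher in the Ext1S100a4Cre host were found for 3.38% of all genes. Fgfbp3, a secreted carrier that frees FGFs from the matrix, was lowest in the same WT host tumour as Fgf8, at 3.22, 3.04, -0.92 and 0.49 against 3.99, 2.44, 2.88 and 4.07. Its difference was 1.88 (SE 0.94, limma adjusted p = 0.747), or 1.09 without WT host tumour 3. Fgfbp1, a carrier of the same family, differed by -0.85 and the adhesion molecule Ncam1 by -1.07, or -0.38 without Ext1S100a4Cre host tumour 1.

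Heparan sulfate coreceptors and the enzymes that shape the FGF-binding sites on the chains did not pass the threshold either. Of 13 core proteins 9 were lower and 4 higher on average (median -0.18). An unadjusted p under 0.05 was found for 1, where 6.55% of all genes had it. Col18a1, a collagen that carries heparan sulfate, differed by -0.55 (SE 0.21) without overlap (1.14% of all genes had groups apart in this direction), Gpc1 by 0.25, Sdc3 by -1.03 and Gpc5 by -0.33 (limma adjusted p = 0.747 for each of the 4). Gpc5 turned to 0.13 with normexp. Of 10 tested sulfation and editing enzymes 6 were lower and 4 higher, and 1 had an unadjusted p under 0.05 (6.55% of all genes). Hpse, the heparanase that releases FGFs by cutting the chains, differed by -0.97 (SE 0.36, limma unadjusted p = 0.0276, adjusted p = 0.747), Hs6st2 by 0.57, Sulf1 by -0.45 and Ndst3 by -0.44. Ndst3 was near background in 2 of the 4 Ext1S100a4Cre host tumours and turned to 0.18 with normexp.

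Downstream of the receptors, no adaptor or effector passed the adjusted threshold, and their differences ran from -0.68 to 0.20. Of 14 genes 8 were lower and 6 higher on average, with a median difference of -0.030. At an unadjusted p under 0.05 there were 0 (6.55% of all genes). Gab1, a docking protein of the receptor complex, differed by -0.68, Rps6ka3, an ERK-activated kinase, by -0.36, the ubiquitin ligase Cbl by -0.17 and the Ras activator Sos2 by 0.20 (limma adjusted p between 0.747 and 0.771). Rps6ka3 had groups without overlap, as did 1.14% of all genes in this direction. Its lowest WT host tumour measured 2.334 and its highest Ext1S100a4Cre host tumour 2.332. On its other kept probes the groups overlapped, with lower means in the Ext1S100a4Cre host. A dimmer Cbl probe gave 0.39, and in the unscaled series matrix all 14 had a lower mean (Sos2 -0.052).

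ERK feedback genes, a readout of FGF receptor activity among other inputs, had 11 higher and 7 lower means of 18 tested (median difference 0.14). Of these 0 had an unadjusted p under 0.05 (6.55% of all genes). Spry2, a feedback inhibitor of receptor kinases, measured 0.36, 0.32, -0.27 and -0.086 in the WT host and 0.74, 0.71, 0.066 and 0.41 in the Ext1S100a4Cre host. Of the latter 3 of 4 were above every WT host tumour, and the difference was 0.40 (SE 0.22, limma adjusted p = 0.747). Etv4, a transcription factor induced by FGF signalling, measured 2.87, 3.00, -0.13 and 0.87 against 2.88, 2.85, 1.98 and 3.44. Its difference of 1.13 (SE 0.72) was 0.54 without WT host tumour 3, in which Fgf8 was also lowest. Egr1, an immediate early gene, differed by -0.65, or -0.095 without that tumour. Spred3, an inhibitor of Ras-ERK signalling, differed by 0.20. In the unscaled series matrix 13 of the 18 had a lower mean (Spred3 -0.047).

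**Figure D5:**
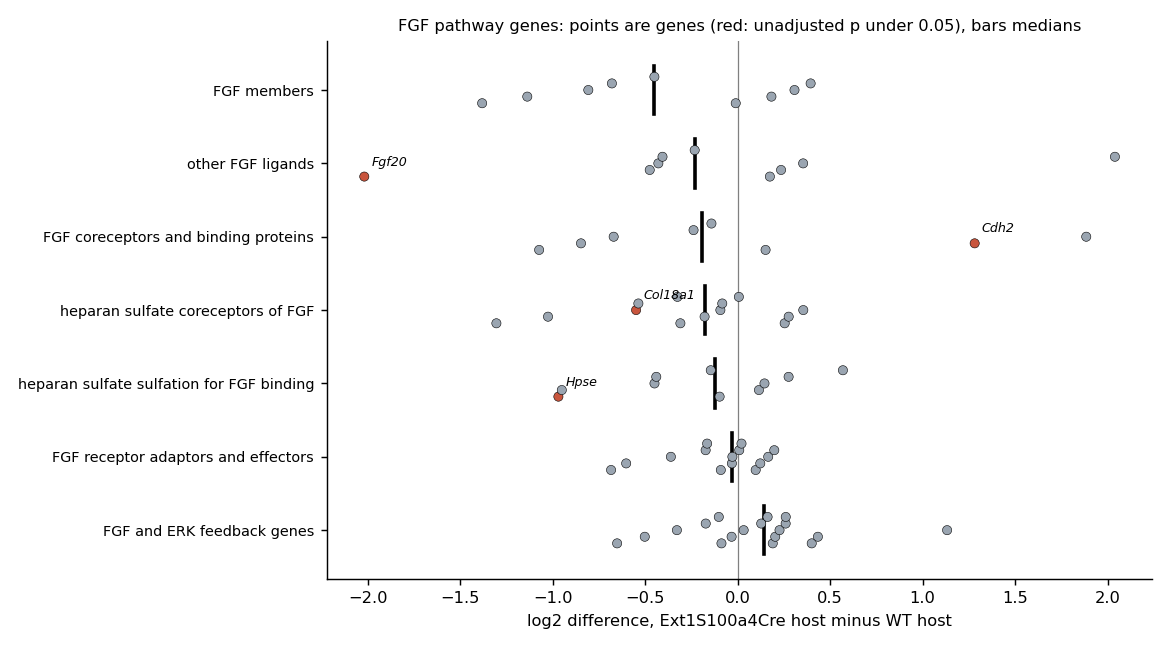
Host differences of FGF pathway genes by list (x axis, log2 difference, Ext1S100a4Cre host minus WT host; each point is 1 tested gene, black bars are list medians, red marks an unadjusted p under 0.05). Of the tested genes shown 4 are red (Fgf20, Cdh2, Col18a1 and Hpse), Fgf20 having entered the test only through the WT host, and the 9 members hold none. Of all genes 6.55% were under that p.

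The genes most like each member over the 8 tumours were named by the highest Pearson r among 15691 named genes, for the 6 members well above background in all tumours. Since so many genes were compared over only 8 tumours, r is given as a measure of likeness with no test. Fgf18 was most like Atg3 (r = 0.995), Inmt (0.989) and Bcl6 (0.988), and 244 genes had r over 0.9 with it. Fgf1 was most like Itgae (0.978), Gpd1l (0.978) and Capn3 (0.973), the last a calpain of skeletal muscle. Fgfr2 was most like Eme2, Ptpn21 and Kng2 (0.988, 0.985 and 0.977). Fgfr1 was most like Slc25a12, Bvht and Pet117 (0.963, 0.956 and 0.953). Fgfr3 was most like Btbd10, Olfr649 and Fcf1 (0.972, 0.955 and 0.948), with 21 genes over 0.9. Fgfr4 was most like Pik3r1 (0.959), which encodes a regulatory subunit of PI3 kinase and stands in the adaptor list, Cela3a (0.959) and Secisbp2l (0.958).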

How the data were processed

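The 8 arrays (1-colour Agilent, Cy3, 0.5 µg of RNA each) were deposited as scanner files of Feature Extraction 10.7.3.1, per the file headers, while version 9.1 stands in the submitters' processing notes. The deposited values are linear intensities that the software had background-subtracted, and the series matrix holds them unscaled. From log2 intensity the array's 75th percentile was subtracted, taken over all spots except the 3671 controls of 62976. Outlier spots were dropped, spots of 1 probe averaged, and 39716 of 56605 probes kept, those flagged well above background by the scanner software on 4 or more arrays. A gene's brightest kept probe stands for it. Names came from RefSeq accessions (GRCm38.p6); the files use mm9, so no coordinates are given.

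Limma 3.58.1 (R 4.3.3, two-sided, Benjamini-Hochberg over 31281 genes and transcripts) compared the hosts, beside exact permutation over 70 assignments. Nothing says that the tumours came from separate experiments, so p-values measure only the spread between these tumours. The fit was tested on simulated data. The members and lists were chosen with earlier results of these data known. Named are all members, up to 4 genes per pathway list with the smallest unadjusted p, and the 3 genes most like each member that was well above background on all 8 arrays; other genes were chosen after their values were seen. Replicate numbers were not treated as pairs. Other settings were normexp (offset 50), quantile, median or no scaling, no filter or 1 on all arrays, a mean over probes, replicate or slide-row blocks, single slide rows, array weights, robust variance, and tumours left out.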

Additional observations from a re-analysis of the deposited data

Results flagged for a closer look

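No group of 4 tumours of a member held a tumour far from the other 3 by Dixon's criterion. Of 86 groups examined (43 genes and marker means in 2 hosts) 5 did, where chance gives about 1 in 20. Ncam1 was -0.36 in WT host tumour 3, against -1.75 to -1.55 in the other 3. Egr1 was 2.46 in the same tumour, against 0.11 to 0.39. The adipocyte marker mean was -2.26 there, against -4.80 to -4.62. The epithelial marker mean was 2.73 in WT host tumour 4, against 2.08 to 2.19. Rps6ka3 was 1.64 in Ext1S100a4Cre host tumour 2, against 2.25 to 2.33.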

How the results depend on the processing

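Fgf1, Fgf2, Fgf7, Fgf21, Fgfr1, Fgfr3 and Fgfr4 kept their sign in each fit with 1 tumour left out. Over the 24 other settings the 9 members gave 194 differences of the same sign and 19 of the other, and no member passed the adjusted threshold. The sign turned with normexp for Fgf21 (0.074) and Fgfr2 (0.085), with quantile and median scaling for Fgfr2 (0.017 and 0.018), with array weights for Fgfr2 (0.089), in the unscaled series matrix for Fgfr3 (-0.067), and within slide row 1 for Fgf18 (0.42) and Fgfr2 (0.31). Without Ext1S100a4Cre host tumours 1 and 4 it turned for Fgfr1 (-0.070), Fgfr2 (0.16) and Fgfr4 (0.064), without tumours 2 and 3 for Fgf1 (-0.31), and without tumour 1 and WT host tumour 3 for Fgf18 (0.30) and Fgfr2 (0.11). The last 2 settings were chosen after seeing the data. With 1 tumour left out, Fgf18 ranged from -1.07 to 0.011 and Fgfr2 from -0.12 to 0.069.

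With the filter on all 8 arrays 3 of the 6 members still tested were lower. With normexp 4 of the 16 kept member probes were lower, against 7 here, and the dimmest Fgfr1 probe turned to 0.055. At an unadjusted p under 0.05 the members counted 1 without Ext1S100a4Cre host tumours 1 and 4, 3 without tumours 2 and 3, and 0 to 2 with 1 tumour left out. Over all genes the adjusted count was 1 with normexp or array weights, 11 without tumours 1 and 4, 3 without tumour 1 and WT host tumour 3, and 0 to 2 with 1 tumour left out, where the 2 came without WT host tumour 3. The replicate block gave 3241 genes at an unadjusted p under 0.05 and 0 after adjustment. Same-numbered tumours deviated together in 2 of 4 numbers, with correlations from -0.25 to 0.59. Without Ext1S100a4Cre host tumours 2 and 3 that count was 5361.

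The pathway lists had 9, 8, 13, 10, 14 and 18 genes tested. Together they held 4 genes at an unadjusted p under 0.05, where 2050 of all 31281 (6.55%) were under it. Fgf20, which entered the test only through the WT host, is 1 of these 4. The lists held 9 in the series matrix (2728 of all), 11 without tumours 2 and 3 (5361 of all, 17.1%) and 7 with array weights (2518 of all). With 1 tumour left out they held 2 to 7, and all genes 1465 to 2965. Lower means counted 8 of the other ligands with no filter and 3 without tumours 1 and 4. They counted 3 coreceptors within slide row 1 and 3 without tumour 1 and WT host tumour 3, where heparan sulfate coreceptors counted 5. Adaptors counted 14 in the series matrix. Feedback genes counted 13 there, within slide row 1 and with array weights, and 4 to 11 with 1 tumour left out. The cause of these changes was not tested. Fgf2, Fgf20 and Fgf21 were read near background, so their differences rest partly on background, and for Fgf10 no difference is given.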
